A study of Mus musculus with 18 samples.

Results

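Cytosolic ribosomal protein genes were followed in macrophages that carry the T166A form of PPARg, a nuclear receptor of lipid metabolism, and in macrophages with the wild-type (WT) receptor. The members were the genes in both count tables whose symbol starts with Rpl or Rps and a digit, together with Rpsa, Rplp0, Rplp1 and Rplp2, without the Rps6k kinases and without pseudogenes. This gave 89 of the 26149 genes in both tables, on 19 chromosomes. Among them, 77 are the canonical proteins of the cytosolic ribosome, with 43 in the large subunit, 31 in the small subunit and 3 in the stalk. Another 10 are copies of a canonical gene (Rpl3l, Rpl7l1, Rpl10l, Rpl22l1, Rpl32l, Rpl36al, Rpl37rt, Rpl39l, Rps27l and Rps27rt), and 2, Rps19bp1 and Rps23rg1, match the rule by symbol but are not ribosomal proteins. The symbols of Fau and Rack1, which encode further ribosomal proteins, do not match the rule, and 10 pseudogenes were left out.

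The ribosome pairs a small subunit, which reads the mRNA, with a large subunit, which joins the amino acids, and each canonical protein is present in about the same amount in every ribosome. Most of these mRNAs are short and abundant and begin with a cytosine followed by a run of pyrimidines, the terminal oligopyrimidine (TOP) tract, through which their translation follows mTOR signalling. Macrophages raise or lower the output of these genes with growth and activation, and M-CSF is a growth factor that acts in this way.

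Total RNA had been sequenced from 2 cell sources. Bone marrow-derived macrophages (BMDM) came from PPARg T166A mice or from C57BL/6J mice and had grown for 7 days in 50 ng/ml M-CSF (n = 3 libraries per genotype). In each BMDM genotype, replicates 1 and 2 were labelled batch B1 and replicate 3 batch B2. Cells of injured dorsal skin at day 6 after injury were digested to a suspension and held on anti-F4/80 magnetic beads (n = 6 libraries each for T166A and WT mice, with no batch label). The labels give no sex or age, and for skin no strain beyond the genotype. They do not say that replicates came from separate animals or cultures, so p-values measure the spread between these samples, which may be technical. The extraction note speaks of adipocytes, although the labels name macrophages.

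Gene counts ranged from 40072513 to 44152639 in BMDM and from 29357354 to 38774475 in skin. A substitution cannot be seen in counts per gene, so the genotype labels could not be checked against the targeted residue. All 10 macrophage markers were measured in both sources. Their summed level was 32541 to 42734 CPM (counts per 1000000, with library sizes scaled by TMM, the trimmed mean of M-values) in T166A BMDM and 36143 to 48580 CPM in WT BMDM. In BMDM, 8 of 12 adipocyte markers and 6 of 10 keratinocyte markers were at 0 in every library, and fibroblast markers summed to 23.2 to 465 CPM in T166A BMDM and 11.0 to 84.3 CPM in WT BMDM. In skin the macrophage markers summed to 12145 to 13911 CPM in T166A cells and 14253 to 17231 CPM in WT cells, and 7 of 10 were lower in T166A. Fibroblast markers in skin summed to 7417 to 12846 CPM in T166A cells and 8839.5 to 12919 CPM in WT cells. Endothelial markers summed to 1652 to 2420.5 CPM and 1279 to 1796 CPM, against 12.2 to 46.0 and 18.2 to 34.4 CPM in BMDM. No adipocyte marker was at 0 throughout in skin. The skin fraction thus also held RNA of other cells. In bulk RNA, fewer cells of a type and less RNA per cell cannot be told apart.

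The start of the transcript, where the TOP tract lies, is shown here for members that the results turn on and for 4 with a long tract. Each run is 30 bases of the sense strand from the RefSeq promoter table (GRCm38.p6), centred on a listed start, and capitals mark the tract as searched, which runs from a cytosine at most 5 bases from that start through the pyrimidines after it, at least 4 of them.
Rpl38, chr11:114668565-114668594, plus strand: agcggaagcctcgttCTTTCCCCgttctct
Rps23, chr13:90923107-90923136, plus strand: gccttcggctgggcggggCTTCCCgcaatg
Rps28, chr17:33824548-33824577, minus strand: ggtaccgcgtgcggtctcgcgagagcgaaa
Rpl11, chr4:136053379-136053408, minus strand: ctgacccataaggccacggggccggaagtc
Rpl13a, chr7:45128731-45128760, minus strand: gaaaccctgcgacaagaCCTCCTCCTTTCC
Rpl27a, chr7:109519180-109519209, plus strand: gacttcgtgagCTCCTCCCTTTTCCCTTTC
Rpl35, chr2:39005117-39005146, minus strand: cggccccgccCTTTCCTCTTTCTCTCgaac
Rps6, chr4:86857353-86857382, minus strand: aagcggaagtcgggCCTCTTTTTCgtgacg
Rps28 and Rpl11 had no such tract in this window.

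The table held promoters for 57 of the 77 canonical genes, 67 starts in all. A tract whose cytosine lay within 5 bases of the start was found at 29 of these, or 43.3%, against 18.3% of all 32851 promoters, and exactly at the start at 19.4% against 2.51%. Other motifs were searched over 300 bases, on both strands except for the TATA motif, which was searched on the sense strand. The ETS-type motif CCGGAAGT was present in 16.4% of the canonical promoters and 3.89% of all, and the YY1-type motif AAGATGGC in 10.4% and 2.75%. The GC box GGGCGG was present in 61.2% and 35.7%, and the TATA motif TATAAA in 7.46% and 8.32%. These shares describe the letters in these windows only. The 27 genes with a tract had a median log2 fold change (T166A over WT) of -0.29 in BMDM, and the 30 without had the same median of -0.29. In skin these medians were -0.06 and -0.05. A tract found at a listed start thus did not separate the members by their difference between genotypes. Pyrimidine runs farther from the start were not counted, so the 30 genes may include mRNAs with a TOP tract.

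Members differed widely among themselves in level per length, and the order was similar in both sources. Levels here are CPM per kb of transcript, averaged over all libraries of a source, and the tables of the 2 sources were normalized separately. In BMDM the highest were Rplp1, a stalk protein that recruits the GTPase factors, with 3033 CPM per kb, Rpl41, the smallest ribosomal protein, with 2387, and Rpl10, which joins the large subunit late, with 2113. The same 3 led in skin, where Rplp1 had 706, Rpl10 621 and Rpl41 604 CPM per kb. The median canonical gene stood at 797 CPM per kb in BMDM and 282 in skin.

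At the other end of the canonical genes in BMDM were Rpl21 with 133 CPM per kb, Rps20 with 171 and Rpl5 with 258. In skin the lowest canonical genes were Rps20 with 48.1, Rpl22 with 49.5 and Rpl21 with 68.2 CPM per kb. The lengths of Rps20 and of Rpl22 in skin bear on these values. Rps20 was taken at 3706 nt, the longest of the members. The most abundant Rpl22 transcript was one of 474 nt in BMDM and another one in skin. The skin transcript had no length of its own, and the gene's median of 2048 nt stood in for it. For the 72 canonical genes with the same transcript in both tables, the level per kb was 2.99 times as high in BMDM as in skin at the median, from 1.25 times for Rpl4, which lines the exit tunnel, to 5.64 times for Rps27. The rank correlation of their levels across genes was 0.713, as a description over genes that share the libraries.

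**Figure D1:**
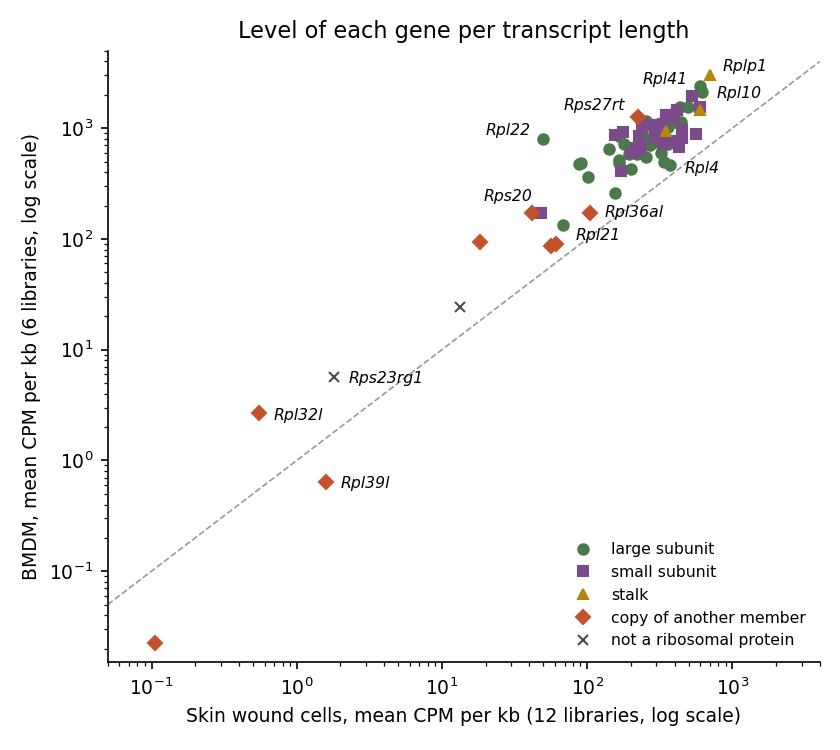
Mean CPM per kb of transcript in skin wound cells (horizontal, 12 libraries) and in BMDM (vertical, 6 libraries), both on log axes; each point is a gene, its marker gives the subunit or class, and the dashed line marks equal levels. Rpl10l, at 0 in skin, is not drawn; Rplp1, Rpl41 and Rpl10 are at the top, Rpl39l lies below the line, and copies and the pair that are not ribosomal proteins make up the low end.

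Several copies share so much sequence with a canonical gene that their counts cannot be read apart from it. Rps27 (chr3:90212667-90213648) encodes a small subunit protein with a zinc finger, and Rps27rt (chr9:114982366-114982739) is a retrocopy. Their coding sequences have 255 bases and no difference:
Rps27 and Rps27rt: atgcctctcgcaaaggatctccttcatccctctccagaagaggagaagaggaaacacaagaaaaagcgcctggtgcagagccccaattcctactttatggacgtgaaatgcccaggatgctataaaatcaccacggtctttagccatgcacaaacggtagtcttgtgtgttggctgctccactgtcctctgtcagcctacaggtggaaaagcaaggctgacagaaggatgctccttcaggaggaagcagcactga
Counts of Rps27rt were 99.7 to 99.8% of those of Rps27 in BMDM and 98.4 to 99.6% in skin, and no library had identical counts for both. Almost every read of one was therefore also counted for the other, and their levels are one measurement. The pseudogene Rpl34-ps1, which the rule leaves out, stood in the same relation to Rpl34, at 99.7 to 99.9% in BMDM and 98.4 to 99.6% in skin.

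The other copies differed more from their parent genes in counts. Rpl37rt had 11.1 to 14.2% of the counts of Rpl37 in BMDM and 6.91 to 11.0% in skin, and 31.3% of the 50-base runs of Rpl37 also occur in Rpl37rt, so that these counts may include reads of Rpl37. Rpl36al had 34.3 to 41.7% of the counts of Rpl36a in BMDM but 107 to 144% in skin. The copy thus had the higher counts of the pair in every skin library. Its transcript is also the longer of the pair, so these counts do not rank the pair by level per length. Rpl22l1, the paralog of Rpl22, had 11.4 to 14.3% of the counts of Rpl22 in BMDM and 30.5 to 36.8% in skin. The ratios of both pairs did not overlap between the sources, and for Rpl22 the transcript counted differed between them; its part in the ratio was not tested. Rps27l, a p53 target, had 17.8 to 24.1% of the counts of Rps27 in BMDM and 22 to 35.9% in skin, and Rpl7l1 had 16.7 to 23.8% and 16.6 to 19.9% of those of Rpl7.

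The least abundant copies had few or no counts. Rpl39l had 0 to 28 counts in BMDM libraries and 14 to 55 in skin libraries, against at least 10635 and 2369 for Rpl39. Rpl3l, a striated muscle paralog of Rpl3, had 0 to 6 and 0 to 19 counts, and Rpl32l had 25 to 69 and 2 to 16. Rpl10l, a testis copy of Rpl10, had 0 to 2 counts in BMDM and 0 in all 12 skin libraries, where a count of 0 allows up to 0.0774 to 0.102 CPM by library (3 counts, counting error only).

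Sequence sharing reached the canonical genes as well. At the median, 52.1% of the 50-base runs and 36.9% of the 100-base runs of a canonical transcript also occurred in a transcript of another gene, and 59 of the 77 had named pseudogenes in the annotation, 291 in all. The sources used here do not say how reads with several matches were treated. For Rps27 with Rps27rt and Rpl34 with Rpl34-ps1, the near-equal counts show that shared reads were counted for both genes. How much such reads add to the other genes was not tested, so the level of each canonical gene carries this uncertainty. The level per kb had a rank correlation of 0.147 in BMDM and 0.297 in skin with the share of 50-base runs, across 77 genes. For some genes the transcript searched for shared runs was longer than the length behind the level. For Rps15a it had 5180 nt against 640 nt, so its shared percentage is taken over more bases.

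In BMDM, ribosomal protein genes took a smaller share of the counts in 2 of the 3 T166A libraries than in any WT library, but the third T166A library had the largest share of all 6. The share was 3.66, 4.41 and 6.84% in T166A replicates 1, 2 and 3, and 4.71, 5.96 and 6.54% in WT replicates 1, 2 and 3. The mean was 4.97% ± 1.66 in T166A BMDM and 5.73% ± 0.935 in WT BMDM (SD, n = 3 each), a difference of -0.765 percentage points that is smaller than the SD of either genotype. Within batch B1 both T166A libraries were below both WT libraries. In batch B2, with 1 library per genotype, T166A was above WT.

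**Figure D2:**
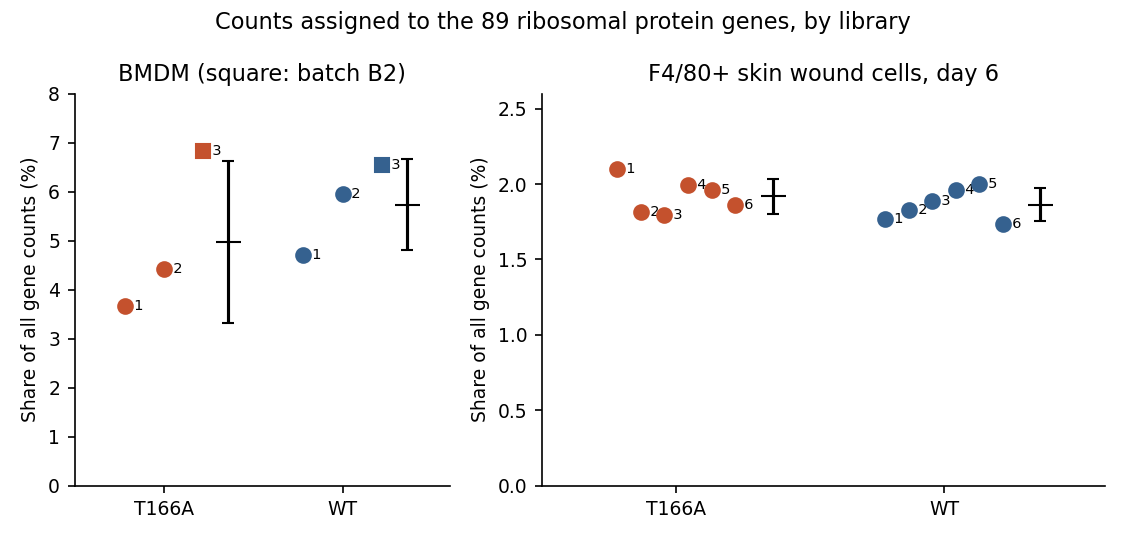
Percentage of each library's gene counts in the 89 ribosomal protein genes, T166A left and WT right, for BMDM and for skin wound cells; points are libraries, squares are batch B2, and black marks give the mean ± SD. In BMDM the T166A libraries span 3.66 to 6.84% and the WT libraries 4.71 to 6.54%; in skin both genotypes lie between 1.74 and 2.10%.

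The members moved together from library to library. Relative to each gene's mean over the 6 BMDM libraries, their median log2 CPM was -0.54, -0.25 and 0.31 in T166A replicates 1, 2 and 3, and -0.16, 0.22 and 0.39 in WT replicates 1, 2 and 3. The interquartile range over members within a library was 0.0956 to 0.219, against 0.367 to 0.677 for all genes tested. In T166A replicate 1 all 77 canonical genes were below their mean, in T166A replicate 2 76, in WT replicate 1 62, and in the other 3 libraries none.

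Transcript length moved with the same libraries. The members had a median length of 680 nt in BMDM, against 2561 nt for all genes tested. Across 12971 tested genes, the rank correlation of length with centred log2 CPM was 0.40, 0.37 and -0.17 in T166A replicates 1, 2 and 3, and 0.07, -0.34 and -0.43 in WT replicates 1, 2 and 3, as descriptions over genes of one library. Other genes of up to 600 nt were low in T166A replicates 1 and 2, with medians of -0.30 and -0.15, as the members were. In WT replicate 1, where the members were also below their mean, those genes had a median of 0.06. Genes for the mitochondrial ribosome, whose proteins are made on cytosolic ribosomes, had median centred values of -0.37, -0.24 and 0.22 in T166A and -0.10, 0.16 and 0.29 in WT, in the same order of libraries as the members. Genes for the respiratory chain and ATP synthase had medians of -0.49, -0.27 and 0.20 in T166A and -0.06, 0.22 and 0.35 in WT.

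**Figure D3:**
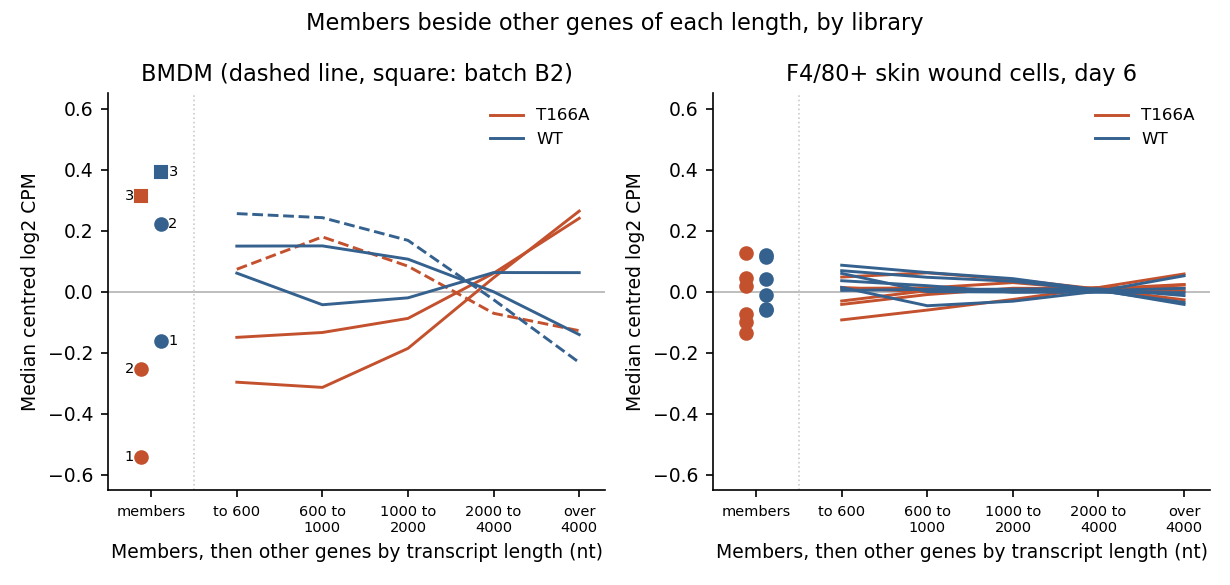
Median centred log2 CPM of the ribosomal protein genes (separate points at the left of each panel) and of all other tested genes in 5 classes of transcript length, for each T166A and WT library of BMDM and of skin; squares with dashed lines are batch B2. In BMDM, T166A replicates 1 and 2 are low at short lengths and high at long ones, WT replicates 2 and 3 the reverse, and the skin libraries lie close together.

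No ribosomal protein gene differed between T166A and WT BMDM by edgeR's quasi-likelihood test with batch as a term and Benjamini-Hochberg adjustment over all genes, although every estimate was below 0. Of 13139 genes tested, 9 had an adjusted p under 0.05, or 0.0685%, and none of the 87 members tested was among them; the lowest adjusted p was 0.175. At an unadjusted p under 0.05, 29 members were lower and 0 higher, against 6.32% of all genes lower and 6.51% higher. Short genes were lower more often. Up to 600 nt these were 41.7% of members and 18.3% of other genes, and from 600 to 1000 nt 30.3% and 14.8%. From 1000 to 2000 nt they were 18.8% and 10.1%. By DESeq2, 4 members (among them Rpl38, Rps23 and Rps28) were lower, against 1.12% of all genes, and by limma-voom 1 (Rpl38), against 0.145%. The filter on low counts removed Rpl3l and Rpl10l in BMDM, and in skin also Rpl32l. All 87 log2 fold changes were negative, as were 52.9% of those of all genes, with a median of -0.30 against -0.02 for all genes. They ranged from -0.96 to -0.07, with quartiles of -0.39 and -0.23 and a median SE of 0.164.

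This direction rested on batch B1 and was smaller once length was taken out. The median difference in log2 CPM, T166A minus WT, was -0.44 within batch B1, with all 87 members negative, and -0.06 within batch B2, with 55 negative, where the median of all genes was also -0.06. Leaving out replicate 3 of either genotype gave a median of -0.45, leaving out T166A replicate 1 gave -0.19, and leaving out WT replicate 2 gave -0.15. With either replicate 3 left out, the batch term takes up the remaining B2 library, so the fit compares batch B1 alone. With the trend of centred log2 CPM on length, fitted in each library on the other genes, entered as an offset, the median was -0.11, with 73 members negative, 14 positive and 0 called, where 0.152% of all genes were called. Scaling by library totals alone kept all 87 negative, with a median of -0.27.

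Other genes of the same length were lower too, by somewhat less. Among members of up to 600 nt the median log2 fold change was -0.35, against -0.27 for 480 other genes of that length. Between 600 and 1000 nt it was -0.31 for 33 members and -0.20 for 1050 other genes, and between 1000 and 2000 nt -0.24 for 16 members and -0.15 for 3176 other genes. Genes over 4000 nt, which include no member, had a median of 0.22. Among the members themselves, the rank correlation of log2 fold change with length was 0.326 in BMDM and 0.427 in skin, so that the shorter ones had the lower estimates in both. Whether length accounts for the difference that remains was not tested.

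**Figure D4:**
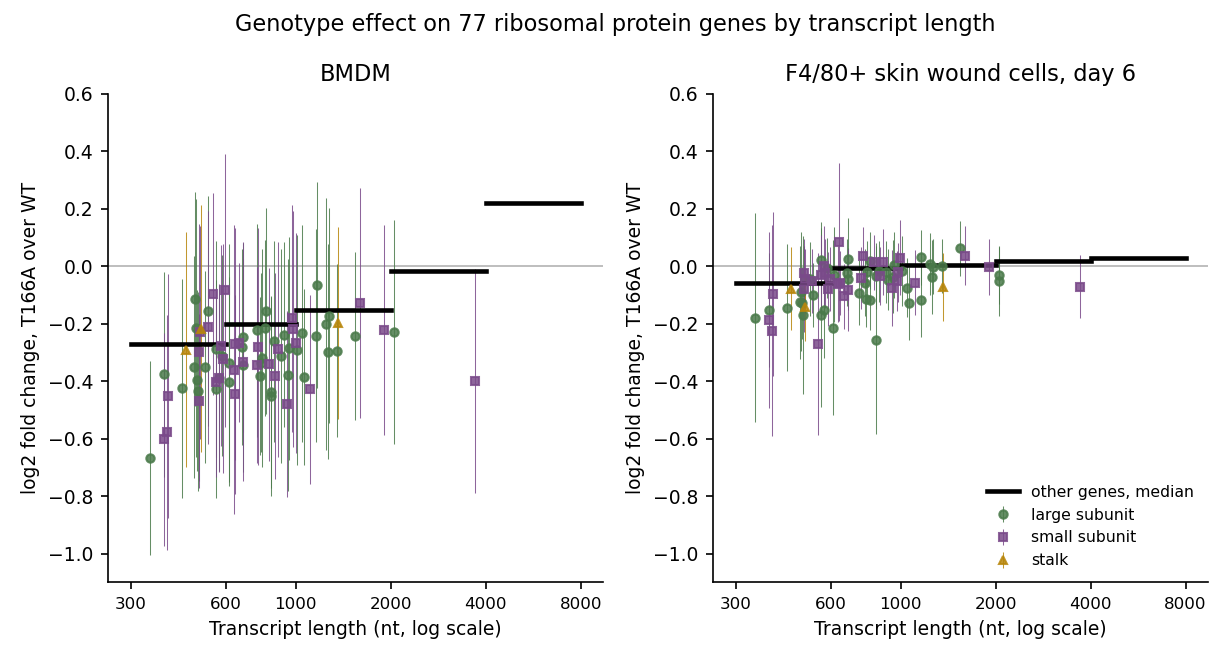
Log2 fold change (T166A over WT, edgeR) of each of the 77 canonical ribosomal protein genes, with its 95% interval as a vertical line, against transcript length on a log axis, with the median of other tested genes in each length class as a horizontal bar, for BMDM and for skin wound cells. In BMDM all members lie below 0, with the shorter ones lower; in skin they lie around 0, on either side.

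By subunit, the estimates in BMDM were alike. The 43 large subunit genes had a median log2 fold change of -0.30, with 14 lower at an unadjusted p under 0.05. The 31 small subunit genes had a median of -0.32, with 13 lower, and the 3 stalk genes -0.22, with 0. The 8 copies tested had a median of -0.34, with 1 lower, and the 2 genes that are not ribosomal proteins -0.46, with 1 lower.

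Rpl38, a small large-subunit protein known in mice for a role in the translation of Hox mRNAs (chr11:114667818-114672333), had the lowest p of the members. It had 93.5, 123 and 164 CPM in T166A replicates 1, 2 and 3, and 192, 184 and 217 CPM in WT replicates 1, 2 and 3. All T166A libraries were below all WT libraries, with the B2 library the highest of each genotype. The log2 fold change was -0.67 (SE 0.149, 95% interval -1.01 to -0.33, edgeR adjusted p = 0.175). Within batch B1 the difference was -0.81 and within B2 -0.41 on the log2 scale.

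Rps28, a small subunit protein near the mRNA exit channel (chr17:33823036-33824562), was the other gene without overlap between the genotypes. It had 90.1, 123 and 165.8 CPM in T166A replicates 1, 2 and 3, and 191, 169 and 204 CPM in WT replicates 1, 2 and 3. The highest T166A library and the lowest WT library were nearly equal. The log2 fold change was -0.60 (SE 0.163, edgeR adjusted p = 0.225). These 2 of 87 members compare with 6.97% of all genes that were lower in T166A without overlap, so the share among members was below that of all genes.

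Rps23, which lies at the decoding centre (chr13:90923122-90924732), had 422, 507 and 742 CPM in T166A BMDM and 687, 744 and 846 CPM in WT BMDM, and a log2 change of -0.48 (SE 0.142, edgeR adjusted p = 0.252). T166A replicate 3 stood among the WT libraries and replicates 1 and 2 below them.

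**Figure D5:**
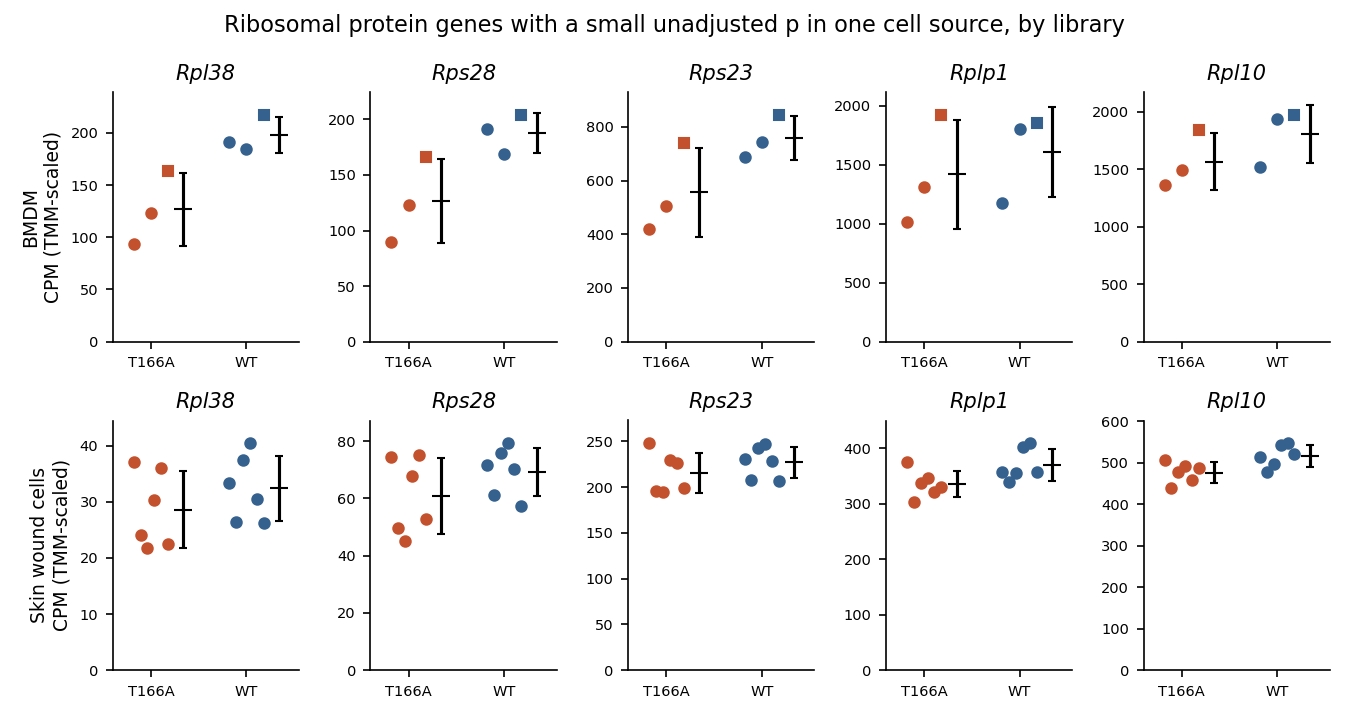
TMM-scaled CPM of 5 ribosomal protein genes in each library, T166A left and WT right of each panel, for BMDM (top) and skin wound cells (bottom); squares are batch B2 and black marks the mean ± SD. Rpl38 and Rps28 are the genes whose BMDM genotypes do not overlap, T166A replicate 3 is the highest T166A library in every BMDM panel, and all 5 genes overlap between genotypes in skin.

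The most negative estimates beside Rpl38 belonged to members with low counts. Rpl39l had 0.270, 0.643 and 0 CPM in T166A BMDM and 0.511, 0.476 and 0.208 CPM in WT BMDM, and its log2 fold change of -0.96 had an SE of 1.15. Rpl32l had 0.766, 0.850 and 0.835 CPM in T166A and 0.581, 1.64 and 1.69 CPM in WT, with -0.64 (SE 0.610). Rps23rg1, a retrocopy-derived gene of another function, had 3.99, 3.51 and 7.56 CPM in T166A and 7.04, 7.40 and 8.29 CPM in WT, with -0.67 (SE 0.253, edgeR adjusted p = 0.328). These 3 genes all overlapped between genotypes.

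Among the members with the highest level per kb, Rplp1 and Rpl10 had estimates nearer 0 than the members' median of -0.30, while Rpl41 had -0.43. Rplp1 had 1014, 1315 and 1925 CPM in T166A BMDM and 1172, 1801 and 1855 CPM in WT BMDM, with an estimate of -0.22 (SE 0.189), and Rplp0 and Rplp2, the other stalk proteins, had -0.20 and -0.29. Rpl10 had 1360, 1498 and 1842 CPM in T166A and 1519, 1934 and 1975 CPM in WT, with -0.22. Among all members, Rps14 and Rpl7 had the estimates nearest 0, at -0.08 and -0.07. For Rplp0, Rplp1, Rplp2, Rpl10, Rps14 and Rpl7 the spread between libraries of a genotype exceeded the difference between genotypes.

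Members followed for a known role had estimates between -0.13 and -0.45 in BMDM. Rpl5 and Rpl11, which join the large subunit as a pair and can bind Mdm2, averaged 497 ± 218 and 562 ± 189 CPM in T166A BMDM, against 560 ± 145 and 750 ± 144 CPM in WT BMDM (SD, n = 3 each), with log2 fold changes of -0.23 and -0.45. Rpl23, another Mdm2-binding protein, had -0.39, and Rpl13a, which in human myeloid cells takes part in a complex that silences inflammatory mRNAs, had -0.23. Rps6, the substrate of the S6 kinases, had 542 ± 208 CPM in T166A and 641 ± 148 CPM in WT, with -0.29. Rps3 at the mRNA entry had -0.22, Rps19 -0.45, Rpsa, also described as a laminin receptor, -0.13, Rps27a, made as a fusion with ubiquitin, -0.36, Rpl22 -0.35 and Rpl3, at the peptidyl transferase centre, -0.29. None of these passed the adjusted threshold.

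In skin wound cells the ribosomal protein genes differed little between genotypes, although 25.9% of all genes tested passed the threshold. Their share of counts was 1.80 to 2.10% (median 1.91%) in T166A cells and 1.74 to 2.00% (median 1.86%) in WT cells. The means were 1.92% ± 0.118 and 1.86% ± 0.107 (SD, n = 6 each), a difference of 0.055 percentage points that is smaller than either SD. Leaving out 1 library moved it between 0.019 (without T166A replicate 1) and 0.083 (without WT replicate 5). The median centred log2 CPM of the members was -0.14 to 0.13 in T166A libraries and -0.06 to 0.12 in WT libraries, and it was below 0 in T166A replicates 2, 3 and 6 and in WT replicates 1, 2 and 6. The rank correlation of length with centred log2 CPM was -0.16 to 0.16 over the 12 libraries.

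By edgeR, 4011 of 15473 genes tested in skin passed the adjusted threshold, or 25.9%, and 0 of 86 members did. The share of other genes that passed rose with length. It was 12.3% up to 600 nt, where 34 members lie, and 18.8% from 600 to 1000 nt, where 33 lie. Over 4000 nt, with no member, it was 32.3%. The lowest adjusted p of a member was 0.0717. At an unadjusted p under 0.05, 5 members were lower (Rplp1, Rpl17, Rpl10, Rpl31 and Rpl23) and 0 higher, against 18.2% of all genes lower and 18.6% higher. By DESeq2 1 member (Rpl17) was lower, against 14.5% of all genes, and by limma-voom 3 (Rplp1, Rpl17 and Rpl10), against 14.9%. No member separated the genotypes without overlap in either direction, against 6.63% of all genes lower and 5.43% higher. The median absolute log2 fold change was 0.0555 over members and 0.177 over all genes, and the 95% interval lay within ±0.5 for 78 of the 86.

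Of the 86 estimates in skin, 67 were negative and 19 positive, with a median of -0.05, and 48.4% of all genes were negative. That sign depended on the scaling. With library totals and no TMM factor, 62 were positive, the median was 0.04 and Rpl4 was called higher (log2 fold change 0.15, edgeR adjusted p = 0.0190), while the median of all genes was 0.10 and 21.7% of them were called higher. TMM factors were 1.02 to 1.05 in T166A and 0.946 to 1.001 in WT skin libraries. With the adipocyte marker score as a covariate the median was 0.14, with 81 members positive and 0 called, against 4.92% of all genes. The 12 adipocyte markers summed to 533 to 878 CPM in T166A cells and 485 to 688 CPM in WT cells, and 10 of them were higher in T166A. Endothelial markers were higher for 7 of 10 and muscle markers lower for 9 of 10. The part of these other cells in the members' values was not tested.

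Rplp1 had the lowest p of the members in skin. Its level was 303 to 374 CPM (median 334) in T166A cells and 340 to 409 CPM (median 357) in WT cells. T166A replicates 1 and 4 lay within the WT range, so the groups overlapped. The log2 fold change was -0.14 (SE 0.057, edgeR adjusted p = 0.0717). Without T166A replicate 1 it was called with 2 other members (Rpl23 and Rpl36), against 12.6% of all genes lower, and without WT replicate 2 it was called with Rpl10, against 13.4%.

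Rpl17, a protein at the mouth of the exit tunnel, had 199 to 220 CPM (median 210) in T166A skin cells and 215 to 244 CPM (median 227) in WT skin cells, with a log2 change of -0.12 (SE 0.047, edgeR adjusted p = 0.0731). Rpl10 had 438 to 507 CPM (median 482) in T166A and 477 to 547 CPM (median 518) in WT, with -0.12 (edgeR adjusted p = 0.0920). Rpl31 had 150 to 186 CPM (median 165) in T166A and 167 to 201 CPM (median 182) in WT, with -0.13 (edgeR adjusted p = 0.124). All 3 overlapped between genotypes.

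The widest estimates in skin had wide errors. Rps27 had 59.0 to 96.6 CPM (median 74.2) in T166A cells and 76.8 to 110 CPM (median 95.2) in WT cells, with -0.27 (SE 0.145), and Rps27rt, the same measurement, had the same -0.27. Rpl37 had -0.26 (SE 0.149) and Rps29 -0.22 (SE 0.166). On the positive side, Rpl39l had 0.509 to 1.46 CPM in T166A and 0.455 to 1.04 CPM in WT, with 0.46 (SE 0.303). Rps23rg1 had 0.42 (SE 0.239), Rpl37rt 0.12 (SE 0.131) and Rps27a 0.08 (SE 0.126).

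By subunit in skin, the median log2 fold change was -0.05 for the 43 large subunit genes, -0.05 for the 31 small subunit genes and -0.08 for the 3 stalk genes. Among the 7 copies tested it was 0.02. The genes followed for their roles had estimates between -0.14 (Rplp1) and 0.08 (Rps27a) in skin. Rpl23 had -0.13, Rpl10 -0.12, Rplp2 -0.08, Rplp0 -0.07, Rpl5 -0.03, Rpl11 -0.04, Rpl3 -0.001, Rps3 -0.003, Rps6 0.01, Rpsa 0.04, Rpl22 -0.05, Rpl13a -0.08 and Rps19 -0.06.

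The difference between skin and BMDM effects of the genotype was tested over all 18 libraries in one edgeR fit with the BMDM batch as a term. A positive value means that the T166A effect was higher in skin than in BMDM. Of 16586 genes, 6.16% were higher and 8.13% lower, and 8 of 87 members were higher and 0 lower. They included Rpl11, Rpl4, Rps16, Rps7, Rpl28, Rps23 and Rpl3, from both subunits, and the median over members was 0.30 with 85 of 87 positive.

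Rpl11 differed by 0.46 (SE 0.138, edgeR adjusted p = 0.0320). In skin it had 183 to 227 CPM (median 202) in T166A and 191 to 220 CPM (median 213) in WT, and in BMDM 422, 487 and 777 CPM in T166A and 595, 773 and 881 CPM in WT. The genotypes overlapped in skin, while in BMDM batch B1 both T166A values lay below both WT values. Rpl4 differed by 0.34 (edgeR adjusted p = 0.0348) and had 532, 572 and 874 CPM in T166A BMDM and 653, 752 and 895 CPM in WT BMDM. Rps16, whose tail contacts the tRNA in the P site, differed by 0.41 (edgeR adjusted p = 0.0373) and had 454, 549 and 700 CPM in T166A BMDM and 632, 799 and 835 CPM in WT BMDM.

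These calls depended on single libraries, on length and on the scaling. With RLE size factors 1 member was called, against 4.61% of all genes. With the replicate number as a block, 11 were called, against 5.81% of all genes, but Rpl4 (edgeR adjusted p = 0.0538), Rps7 (0.0539) and Rpl3 (0.0746) were not among them. With the length trend removed 0 members were called, where 3.96% of all genes were higher, and without the batch term 0, where 2.29% were. Without BMDM replicate 3 of T166A 42 members were called, and without that of WT also 42, against 11% of all genes in each case. Either omission leaves a lone BMDM library in batch B2, which the batch term takes up. Both fits therefore rest on batch B1 in BMDM and are 1 comparison. Without BMDM WT replicate 1 there were 20 (6.22% of all genes), and without BMDM T166A replicate 1 there were 0 (4.3%). Without BMDM T166A replicate 2 or BMDM WT replicate 2 there was 1 (4.03% and 5.54% of all genes). Leaving out single skin libraries gave 1 to 10 calls, with 780 to 958 of all genes called higher. Respiratory chain and ATP synthase genes, another group of short transcripts, had 30 of 80 higher in the same test. Mitochondrial ribosomal genes had 13 of 78, against 6.16% of all genes.

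Genes around the ribosome were read from lists chosen with earlier results in view. In BMDM none was called in any list. Fau, whose product holds a small subunit protein, averaged 886 ± 253 CPM in T166A and 1208 ± 247 CPM in WT BMDM (log2 fold change -0.47). Mitochondrial ribosomal genes had a median of -0.23, with 74 of 78 negative (Mrps28 -0.72, Mrps21 -0.44), and respiratory chain genes -0.34, with 75 of 77 negative (Uqcr10 -0.69, Ndufa2 -0.74). The other groups had medians nearer 0. These were -0.12 for 21 other TOP mRNAs (Vim -0.35, Eif3h -0.25), -0.05 for 25 initiation factors (Eif3a 0.65, Eif5b 0.55), -0.01 for 42 genes of ribosome assembly and RNA polymerase I (Ddx21 0.39, Ncl 0.58) and 0.05 for 21 genes of growth signalling. Myc, a transcription factor that raises ribosome production, had 3.22 to 9.21 CPM in T166A and 8.34 to 17.8 CPM in WT BMDM, with a log2 change of -1.06 (SE 0.219, edgeR adjusted p = 0.168), and Rps6ka3 had 0.45.

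In skin most lists held calls where the members held none, several of them below the share of all genes, 25.9%. The share called was 40% for initiation factors, 28.6% for ribosome assembly and RNA polymerase I and 27.3% for growth signalling. For respiratory chain genes it was 13.9%, for mitochondrial ribosomal genes 5.13% and for other TOP mRNAs 4.76%. Of 42 genes of ribosome assembly and RNA polymerase I, 12 rose and 0 fell, against 12.7% of all genes higher and 13.2% lower. Dkc1, the pseudouridine synthase of rRNA, averaged 23.7 ± 1.31 CPM in T166A and 16.1 ± 1.42 CPM in WT cells (SD, n = 6 each; log2 fold change 0.56, edgeR adjusted p = 5.87e-06), and Riok2, a kinase of small subunit maturation, rose by 0.44. Among 25 initiation factors 4 rose and 6 fell, with Eif1a at -0.39 and Eif1 at -0.35, both factors of start codon selection. Of 21 other TOP mRNAs 1 rose, Hnrnpa1 at 0.25, and 0 fell, with Tpt1 at -0.13. Growth signalling had 3 of 22 higher and 3 lower, among them Eif4ebp1, a translation repressor controlled by mTOR, at 0.45 and Mxd1, an antagonist of Myc, at -0.30.

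Mitochondrial ribosomal genes had 4 of 78 higher in skin (Mrps25 at 0.24 and Mrpl10 at 0.25 among them) and 0 lower. Among all genes 12.7% were higher and 13.2% lower. Respiratory chain genes had 9 of 79 higher and 2 lower, with Cox8b, a subunit typical of muscle and brown fat, at 2.46 and Uqcrc2 at 0.22. Fau had -0.16 (edgeR adjusted p = 0.0616) in skin, within the range of the members.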

How the data were processed

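Raw transcript counts were deposited for BMDM and for skin, and the rows are RefSeq transcripts. The submitters' processing notes name featureCounts (no version given), HISAT2 2.2.1, cutadapt 4.4, FastQC 0.12.1 and the mm10 build. The sources used here do not state the strand or multi-mapping settings. For each gene, the transcript whose CPM summed highest stood for the gene. In BMDM and in skin, 117 transcripts each had no gene match and were not used (0.514% of counts in BMDM, 0.187% in skin). Lengths came from GENCODE M21 and were set from the gene's median for 8 members.

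Tests used R 4.3.3 and edgeR 4.0.16 with TMM, filterByExpr (minimum count 10, minimum total 15) and the robust quasi-likelihood fit. Benjamini-Hochberg adjustment covered all genes, with a threshold of 0.05. Batch was a term in BMDM. Centred log2 CPM used a prior count of 2. The length trend was a natural spline with 4 degrees of freedom. DESeq2 1.42.0 and limma 3.58.1 were alternatives, and the scripts were tested on simulated data. edgeR's biological coefficient of variation came to 0.279 (BMDM) and 0.133 (skin). No pair of libraries was a duplicate (lowest chi-square per gene 7.06). Same-numbered BMDM libraries of the 2 genotypes deviated together (correlations 0.200, 0.115 and 0.185). The highest correlation with another number was -0.024, -0.017 and -0.053 for replicates 1, 2 and 3. Replicate 3 of each has its own batch label, but replicates 1 and 2 share B1, so the batch term does not separate them. The fit with the replicate number as a block is given below.

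The members and lists were chosen with earlier results of these data known. Genes named with values were the 4 largest changes each way and the 4 smallest p per source, the 3 highest and 3 lowest levels, the copies, the 4 smallest interaction p, genes of known role, and 2 genes per related list. The lowest canonical levels, the pseudogene ratios, Rps14, Rpl7 and the other members called in the interaction or under an alternative were added after their values were seen. A few genes that this rule names are not reported here.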

Additional observations from a re-analysis of the deposited data

Results flagged for a closer look

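In 86 skin groups of 6 libraries, 1 library stood apart from the others in 2 (chance gives about 1 in 20). Rpl21, a large subunit protein, had 54.7 CPM in T166A replicate 5, against 61.1 to 63.8 CPM in the other T166A libraries. Rpl11 had 191 CPM in WT replicate 6, against 211 to 220 CPM in the other WT libraries.

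The T166A effect was higher in skin than in BMDM by the interaction test (edgeR, Benjamini-Hochberg) for 8 of 87 members, against 6.16% of all 16586 genes. With the length trend removed, without the batch term, or without BMDM T166A replicate 1, 0 members were called. Of the 8, 7 are given here. On the log2 scale, skin minus BMDM, the difference was 0.46 for Rpl11, 0.34 for Rpl4 and 0.41 for Rps16. For Rps7 it was 0.39 (edgeR adjusted p = 0.0375), for Rpl28 0.36 (0.0400), for Rps23 0.44 (0.0416) and for Rpl3 0.33 (0.0440). Within each source the estimates were -0.06 in skin and -0.43 in BMDM for Rps16, 0.01 and -0.34 for Rps7, -0.06 and -0.38 for Rpl28, -0.08 and -0.48 for Rps23, and -0.001 and -0.29 for Rpl3.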

How the results depend on the processing

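In BMDM the members' median stayed negative under every setting run, from -0.45 without replicate 3 of either genotype or on batch B1 alone to -0.11 with the length trend removed and -0.02 when libraries were scaled to the members' own total, which moved the median of all genes to 0.25. The settings at -0.45 amount to 1 comparison, within batch B1, because the batch term takes up a lone B2 library. Leaving out single libraries gave -0.45 to -0.15, and a difference in share of -1.70 to -0.11 percentage points. Members called lower numbered 1 without a filter, 4 by DESeq2 and 1 by limma-voom, and 0 in every other setting. Without a filter 21 of 18036 genes were lower. With the replicate number as a block, 0 of 87 members were called and 44 were lower at an unadjusted p under 0.05, against 932 of 13139 genes.

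In skin, members called lower numbered 1 by DESeq2, 3 by limma-voom, and 0 to 3 when single libraries were left out, which moved the difference in share between 0.019 and 0.083 percentage points. Same-numbered skin libraries correlated by -0.045 to 0.090, so the numbers do not pair them. With the replicate block 6 of 86 members were lower, against 2301 of 15473 genes. With the block and the length trend removed 2 were lower, against 2514 of 15473 genes. Library totals alone gave 1 higher, and the adipocyte covariate a median of 0.14. For the difference between sources, members called higher numbered 1 with RLE size factors, 0 with the length trend removed, 0 without the batch term, 11 with the replicate block, and 0 to 42 when single libraries were left out. Under the block Rpl3, Rpl4 and Rps7 no longer passed; it changed no other call among the 8. The members' median in skin was -0.08 to -0.02 when single libraries were left out. Of values for single genes, 791 of 901 in BMDM, 1072 of 1132 in skin and 873 of 989 for the interaction moved by less than the spread between replicates or kept their side of the threshold; the sign changed in 42, 90 and 17 of the values. Library totals alone, scaling to the members' total, and length removal on batch B1 alone (median -0.18) were chosen after seeing the data.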
